A study of Rattus norvegicus with 10 samples.

Results

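Splenic macrophages that had taken up membrane dye from injected stem cells (EV+) were compared with splenic macrophages of nephritic rats that had received no stem cells (GN), gene by gene over the 9003 genes of the expression table. The comparison rested on 3 EV+ and 2 GN libraries, 5 of the 10 libraries in the series, which were chosen by their sample labels and not by any measured value. The remaining libraries, 3 of dye-negative macrophages from the treated rats (EV-) and 2 of macrophages under physiological conditions (control), entered the same model and are given beside the results.

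The rats were of the strain WKY /Ncrj, for which the labels give no engineered allele, and the methods give female animals of 7 to 12 weeks for the nephritis model. EV+, EV- and GN rats shared the injection of TF78, a mouse monoclonal antibody against the glomerular basement membrane that causes crescentic glomerulonephritis, and control rats did not receive it. The EV+ and EV- rats were additionally given human adipose-derived mesenchymal stem cells (ASCs) whose membranes carried the dye DiD, and their M2 macrophages were sorted into dye-positive and dye-negative cells by flow cytometry. The dye marks membrane of ASC origin, and extracellular vesicles (EVs) were taken to be its carrier. GN rats received neither ASCs nor dye, so treatment with ASCs, uptake of EVs and the sort on dye cannot be told apart between EV+ and GN libraries. The libraries are described as biological replicates, and the sources used here do not say which rat gave which library.

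Tissue macrophages answer their surroundings within minutes through immediate early genes, which encode transcription factors of the AP-1, EGR and NR4A families together with short-lived inhibitors that end the signal. One of these inhibitors, tristetraprolin (*Zfp36*), binds AU-rich elements in cytokine mRNAs and speeds their decay, and another, the phosphatase DUSP1, switches off MAP kinases. Macrophages also display peptides on MHC class II molecules to CD4+ T cells and sense growth factors such as GM-CSF, and the spleen holds a large pool of them.

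Between EV+ and GN macrophages, 5 genes fell and 6 rose at a false discovery rate (FDR) under 0.1. The genes that fell were *Zfp36*, *Junb*, *Ier2*, *Rgs2* and *Hes1*. All but *Hes1* belong to the lists of immediate early or signal-terminating genes. The genes that rose were *Csf2rb*, *Hivep2*, *Tmem50b*, *Pcsk1*, *Lipg* and *Lrg1*. The sequences upstream of the annotated starts of the 5 genes that fell are shown to let the letters of well-known signal-responsive motifs be read beside the values. Each window holds the 250 bases before the start from RefSeq on build GRCr8, 5′ to 3′ along the gene, and capitals mark motif matches on either strand.
Zfp36 (chr1:92799109-92799358, minus strand): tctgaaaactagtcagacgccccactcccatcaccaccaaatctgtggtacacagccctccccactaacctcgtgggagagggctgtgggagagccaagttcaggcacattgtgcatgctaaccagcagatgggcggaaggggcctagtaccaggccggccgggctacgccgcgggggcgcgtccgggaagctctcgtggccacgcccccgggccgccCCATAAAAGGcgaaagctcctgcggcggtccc
Ier2 (chr19:40399123-40399372, plus strand): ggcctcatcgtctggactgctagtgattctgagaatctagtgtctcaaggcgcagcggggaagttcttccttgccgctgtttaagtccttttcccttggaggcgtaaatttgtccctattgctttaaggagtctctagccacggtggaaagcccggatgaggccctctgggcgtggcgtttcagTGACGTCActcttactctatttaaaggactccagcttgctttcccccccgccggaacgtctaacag
Junb (chr19:40080876-40081125, plus strand): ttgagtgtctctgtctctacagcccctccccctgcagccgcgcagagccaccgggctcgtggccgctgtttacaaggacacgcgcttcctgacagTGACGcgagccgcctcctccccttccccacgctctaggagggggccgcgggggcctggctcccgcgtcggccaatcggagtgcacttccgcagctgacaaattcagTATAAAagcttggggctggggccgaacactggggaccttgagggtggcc
Rgs2 (chr13:58352667-58352916, minus strand): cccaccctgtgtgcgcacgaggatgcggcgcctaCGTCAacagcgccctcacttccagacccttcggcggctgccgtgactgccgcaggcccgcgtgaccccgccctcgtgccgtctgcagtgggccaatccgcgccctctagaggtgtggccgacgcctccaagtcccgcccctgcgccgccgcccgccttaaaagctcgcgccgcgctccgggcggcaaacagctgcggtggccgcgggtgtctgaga
Hes1 (chr11:84213046-84213295, minus strand): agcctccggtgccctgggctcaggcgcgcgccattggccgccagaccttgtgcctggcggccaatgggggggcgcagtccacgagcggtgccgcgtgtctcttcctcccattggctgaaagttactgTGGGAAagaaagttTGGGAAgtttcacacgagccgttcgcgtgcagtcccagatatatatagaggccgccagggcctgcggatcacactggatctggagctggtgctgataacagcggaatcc

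The motifs searched were the CArG box of serum response factor, the cAMP response element TGACGTCA (CRE), its shorter core TGACG, the RBPJ core TGGGAA and TATAAA. The core lies within the CRE, so a CRE match also counts as a core. *Zfp36* held a CArG box that ended 23 bases before the start. *Ier2* held a CRE, which began 66 bases before the start, and *Junb* and *Rgs2* held a core without a full CRE. *Hes1*, a repressor that Notch signaling induces through RBPJ, held the RBPJ core 2 times, and *Junb* held a TATAAA. Over the 6970 genes of the table with a matched window of the same length, 1.18% held a CArG box, 3.16% a CRE, 31.1% a CRE core, 19.7% an RBPJ core and 6.08% a TATAAA. Of the 6 genes that rose, 4 had a matched window, *Csf2rb* and *Pcsk1* being the exceptions, and none of the 4 held a CArG box or a CRE. A match is a description of letters, and the build of the deposited counts, rn6, is another one.

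The 5 libraries held 22591474 to 26435903 reads on the genes of the table, so that 3 reads, taken as the limit of detection, were worth 0.113 to 0.134 CPM (reads scaled to library size). Such limits cover counting error only. Several general macrophage markers were abundant, with *Lyz2* (lysozyme) between 17460 and 20180 CPM and *Csf1r* (the M-CSF receptor) between 6966 and 8155 CPM in the 5 libraries. Others were low, such as *C1qa*, *C1qb* and *C1qc*, which reached 8.59, 11.2 and 8.96 CPM over the 10 libraries. These 3 were lower in EV+ than in GN libraries without overlap (-0.59, -0.75 and -0.67) and were not called. Of the 18 macrophage markers, 5 (27.8%) lay below GN without overlap, against 11.8% of all genes, and 0 above, with a median of -0.03. *Cd3e*, which defines T cells, was at 0 in 4 of the 5 libraries and at 0.0421 CPM in EV+ replicate 2. The textbook M2 markers *Mrc1*, *Cd163* and *Arg1* were low, at 0 to 0.753, 0 to 1.81 and 0.716 to 2.07 CPM in the 5 libraries. Other members of the list of M2 and regulatory genes were abundant, such as *Il1rn*, *Cd36* and *Pparg*. These reached 1119, 235 and 220 CPM over the 10 libraries. The label M2 refers to the surface gate used in the sort.

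The 11 genes made up 0.122% of the genes tested (limma on log2(CPM + 1), Benjamini-Hochberg adjustment over 9003 genes), with 0.0555% falling and 0.0666% rising. The median log2 difference over all genes was -0.01, and 47.2% of genes had a positive difference. At an unadjusted p under 0.05 there were 642 genes (7.13%), of which 359 (3.99%) were higher and 283 (3.14%) lower in EV+ libraries. The count depended on the GN libraries, since 0 genes passed without GN replicate 2 (410 at an unadjusted p under 0.05) and 2 passed without GN replicate 1. It was 6 to 7 without any 1 EV+ library, and 0 when the intensity trend of limma was switched off (592 at an unadjusted p under 0.05), while edgeR's quasi-likelihood test on the recovered reads called 9 genes, all of them among the 11, and DESeq2 called 41. A fit on the 5 EV+ and GN libraries alone called 9 genes (2 higher and 7 lower), 6 of them among the 11, and missed *Ier2*, *Tmem50b*, *Pcsk1*, *Lipg* and *Lrg1*.

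**Figure D1:**
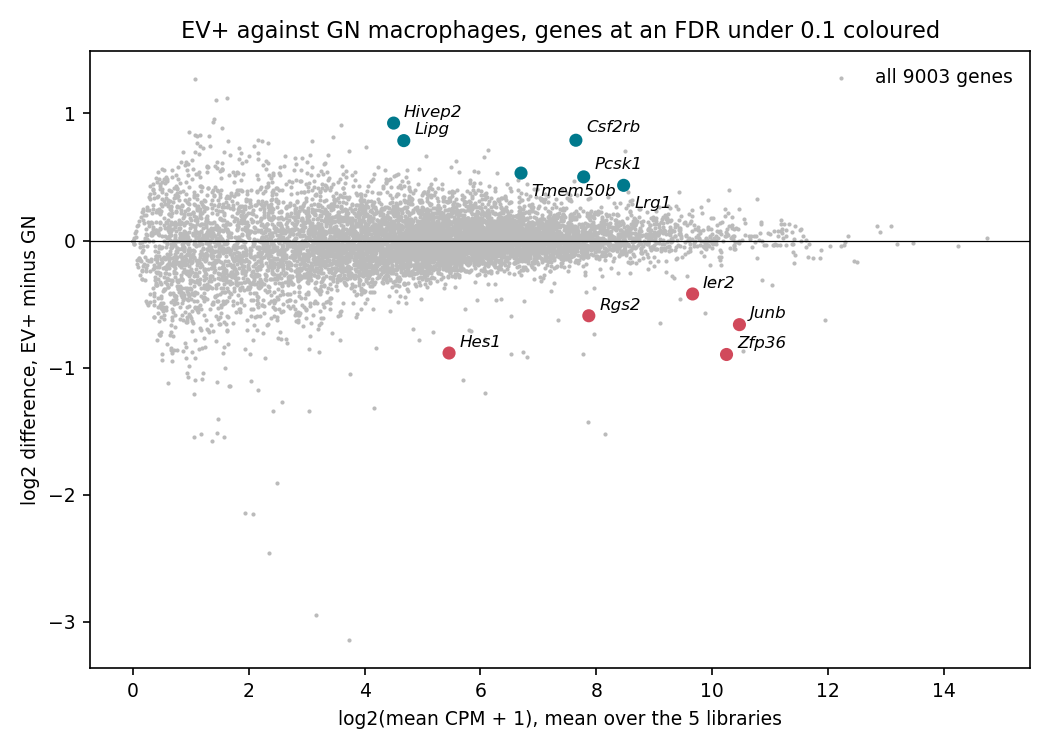
Log2 difference between EV+ (n = 3) and GN (n = 2) macrophages on the vertical axis against the log2 of the mean CPM plus 1 over the 5 libraries on the horizontal axis, 1 point per gene for 9003 genes. The 6 genes that rose (teal) and the 5 that fell (red) at an FDR under 0.1 are named. *Zfp36* and *Junb* lie at high expression and *Hivep2* and *Lipg* at lower expression, and the lowest grey points are skeletal muscle transcripts that were high in GN replicate 1.

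Among signal-terminating genes, *Zfp36* was counted at 1770 and 1598 CPM in the GN libraries and at 972, 912 and 831 CPM in the EV+ libraries. The groups did not overlap, and the EV+ libraries lay close together. The log2 difference was -0.90 (SE 0.124, adjusted p = 0.0156 by limma), a ratio of 0.537. *Rgs2* encodes a GTPase-activating protein that dampens Gq-coupled receptors and is itself induced by cAMP. It measured 298 and 287 CPM in GN and 188, 193 and 200 CPM in EV+ macrophages. Replicates within each group differed by far less than the groups did. *Rgs2* fell by 0.59 on the log2 scale (SE 0.0856, adjusted p = 0.0156 by limma), to a ratio of 0.663. In control macrophages both genes were higher still, at 2855 and 2326 CPM for *Zfp36* and 371 and 367 CPM for *Rgs2*, and both differed between EV+ and control libraries (-1.51, adjusted p = 2.02e-05, and -0.93, adjusted p = 3.56e-05, by limma). The list of 21 mRNA decay and signal-terminating genes was mixed, with 12 lower, 9 higher and a median of -0.11. Without overlap, 6 (28.6%) lay below GN and 3 (14.3%) above, against 11.8% and 11.2% of all genes. *Errfi1* was one of those above (0.63, adjusted p = 0.469 by limma).

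Among transcription factors, *Junb*, an AP-1 subunit, was at 1896 and 1744 CPM in GN and at 1019, 1251 and 1190 CPM in EV+ macrophages. EV+ replicate 1 was the lowest of the 5 libraries and neither group reached the other. Its log2 difference was -0.66 (SE 0.0968, adjusted p = 0.0156 by limma). *Ier2*, an early-response nuclear protein, measured 971 and 939 CPM in GN and 679, 718 and 744 CPM in EV+ libraries. It fell by 0.42 on the log2 scale (SE 0.0782, adjusted p = 0.0920 by limma), the smallest difference of the 11 genes, and it did not pass in any of the 5 fits that left out a library. *Hes1* was at 53.1 and 66.4 CPM in GN and at 33.8, 32.8 and 28.7 CPM in EV+ libraries. All EV+ values lay below both GN values, and the control values of 134.9 and 138 CPM lay well above both groups. The log2 difference of *Hes1* was -0.88 against GN (SE 0.116, adjusted p = 0.0156 by limma) and -2.07 against control (adjusted p = 2.77e-07). Of the genes that fell, *Hes1* kept its call in the largest number of fits that left out a library (4 of 5).

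The dye-negative macrophages of the treated rats gave values on the same side of GN. Their replicate 1 stood apart by NK and T cell markers, 19 of which summed to 1305 CPM there, to 533 and 565 CPM in the other EV- libraries and to 464 to 481 CPM in GN, and the median of these markers was 1.44 for EV- minus GN and -1.39 for EV+ minus EV-. Their part in the EV- values was not tested. *Zfp36* measured 1186, 882 and 896 CPM in EV- libraries, *Junb* 1105, 1235 and 1238 CPM, and *Rgs2* 229, 190 and 192 CPM. Each fell against GN in EV- libraries as well, with log2 differences of -0.78 for *Zfp36* (adjusted p = 0.0147), -0.61 for *Junb* (adjusted p = 0.0147) and -0.53 for *Rgs2* (adjusted p = 0.0175, all by limma). *Hes1* was at 40.4, 37.2 and 41.1 CPM in EV- libraries, above every EV+ library and below both GN libraries, with a log2 difference from GN of -0.57 (adjusted p = 0.0749). For *Ier2* the EV- libraries gave 717, 764 and 800.2 CPM and a log2 difference from GN of -0.33 (adjusted p = 0.16). The EV+ and EV- comparisons share the GN libraries. The direct test between EV+ and EV- passed for none of the 5 genes, the lowest adjusted p by limma being 0.962 for *Hes1* (log2 difference -0.31).

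**Figure D2:**
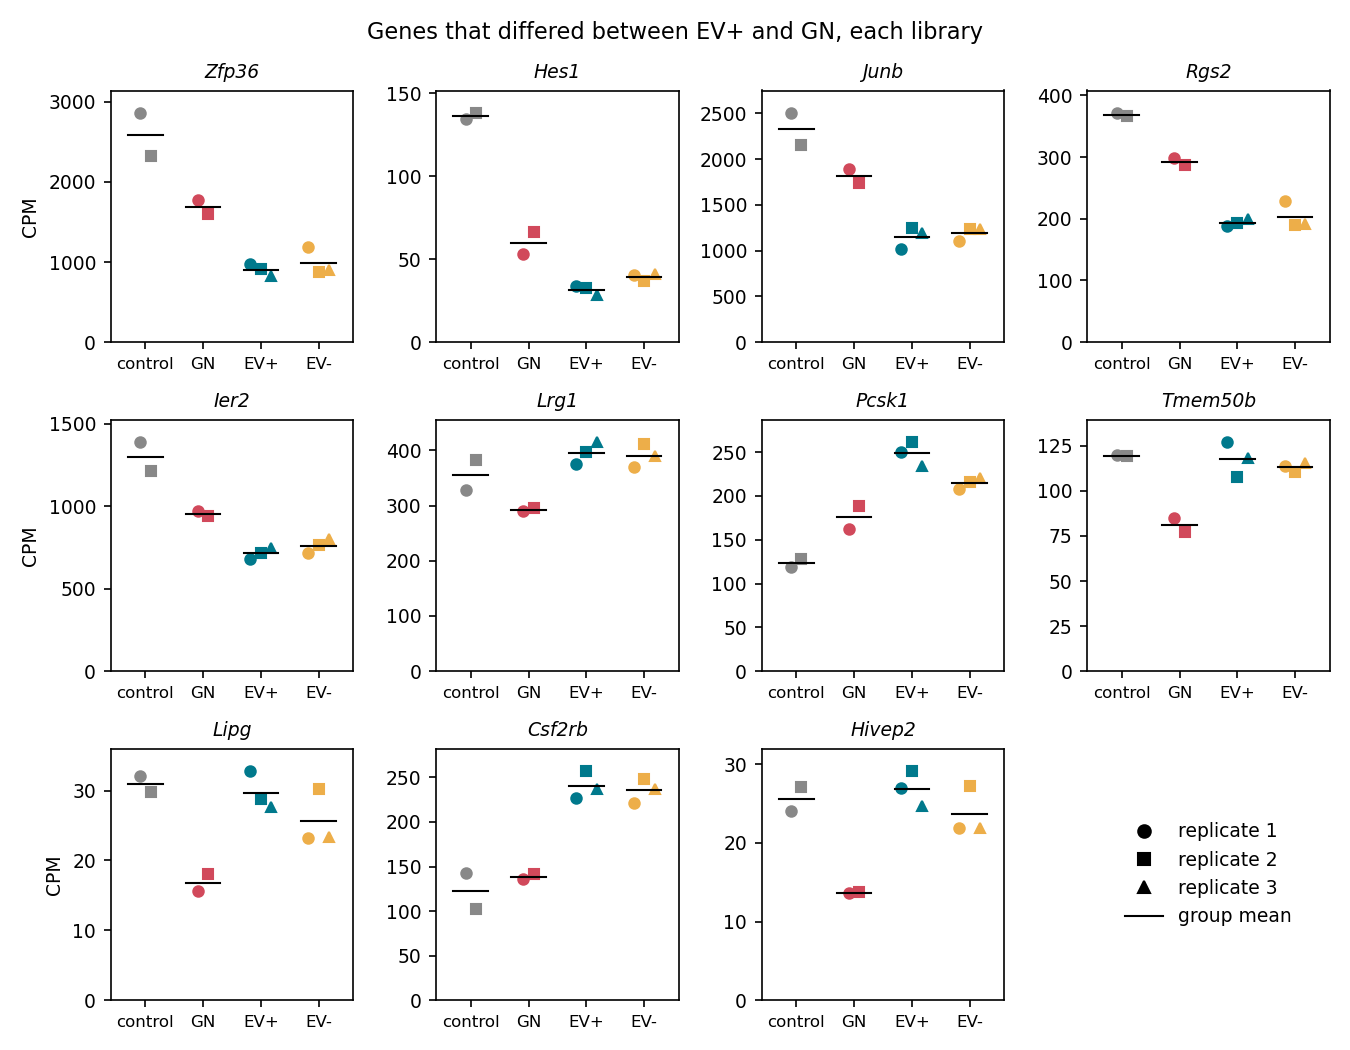
CPM (vertical axis, starting at 0) of the 11 genes that differed between EV+ and GN, in each control (grey), GN (red), EV+ (teal) and EV- (yellow) library, with the symbol shape giving the replicate number and the bar the group mean. No EV+ value overlaps a GN value in any panel. For *Hivep2*, *Tmem50b* and *Lipg* the EV+ points lie beside the control points, and for *Zfp36*, *Junb*, *Rgs2*, *Ier2* and *Hes1* they lie farther from control than the GN points do.

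The wider list of 28 immediate early genes leaned the same way as its 3 called members, *Zfp36*, *Junb* and *Ier2*. Of the 28 genes, 24 had lower means in the EV+ libraries than in those of GN, and for 19 (67.9%) every EV+ value lay below both GN values, compared with 11.8% of all genes. The median log2 difference of the list was -0.36, against -0.01 for all genes. Against control macrophages, 17 of the 28 were called lower in EV+ libraries (1.81% of all genes were), and 6 were called lower in GN libraries (0.822%). The summed CPM of the list was 29990 and 25330 in control, 20590 and 18760 in GN, 12760, 14260 and 14290 in EV+ and 15000, 13560 and 14260 in EV- libraries.

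The phosphatase gene *Dusp1* was at 5501 and 4592 CPM in GN and at 2989, 3129 and 3683 CPM in EV+ libraries. The groups did not overlap, and the log2 difference was -0.63 (SE 0.123, adjusted p = 0.129 by limma), short of the threshold. *Dusp1* passed under DESeq2, edgeR's likelihood-ratio test, voom and the replicate block. Replicate numbers did not pair GN with EV+ libraries (deviations correlated at r = 0.051 and 0.02). Block results between EV+ and GN, here and below, are therefore an alternative fit and not a paired test. The stress-induced factor *Atf3* measured 69.7 and 73.5 CPM in GN and 41.4, 46.7 and 42.4 CPM in EV+ libraries, a log2 difference of -0.71 (adjusted p = 0.187 by limma). For *Fosb*, an AP-1 subunit, values were 26.3 and 27.2 CPM in GN and 12.8, 7.24 and 11.2 CPM in EV+ libraries (-1.31, adjusted p = 0.212). The zinc finger factor *Egr1* stood at 88.7 and 113.1 CPM in GN and at 48.8, 31.2 and 52.2 CPM in EV+ libraries (-1.20, adjusted p = 0.328). *Atf3* and *Egr1* were under the threshold with the replicate block (adjusted p = 0.0917 and 0.0755), *Atf3* also with the 5 libraries alone. Each of the 4 was higher in both control libraries than in any EV+ library, and each was called lower in EV+ than in control macrophages. In EV- libraries *Dusp1* and *Egr1* were called lower than GN (-0.63, adjusted p = 0.0633, and -1.72, adjusted p = 0.02985, by limma). For *Fosb* and *Atf3*, EV- minus GN was -1.33 (adjusted p = 0.127) and -0.53 (adjusted p = 0.307, both by limma).

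*Jun* had the largest difference in the list and the widest spread. It was at 460 and 419 CPM in GN and at 319, 119.6 and 92.1 CPM in EV+ libraries, with a log2 difference of -1.52 (SE 0.498, adjusted p = 0.536 by limma). EV+ replicate 1 stood far above the other EV+ libraries. The heat shock gene *Hspa1a* moved with it, at 365 and 327 CPM in GN and 285, 98.9 and 73.9 CPM in EV+ libraries, and in EV- libraries replicate 1 was again high for *Jun* (474, 151 and 119.5 CPM) and for *Hspa1a* (525, 114.8 and 112 CPM). The 18 heat shock and chaperone genes as a list had a median of -0.08, with 1 of 18 (5.56%) below GN without overlap against 11.8% of all genes, and the median was 0.011 without GN replicate 2. When EV+ replicate 1 and EV- replicate 1 were both left out, which was decided after the values were seen, 32 genes were called (9 higher and 23 lower), 9 of the 11 among them. The part of these libraries' handling in the result was not tested.

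**Figure D3:**
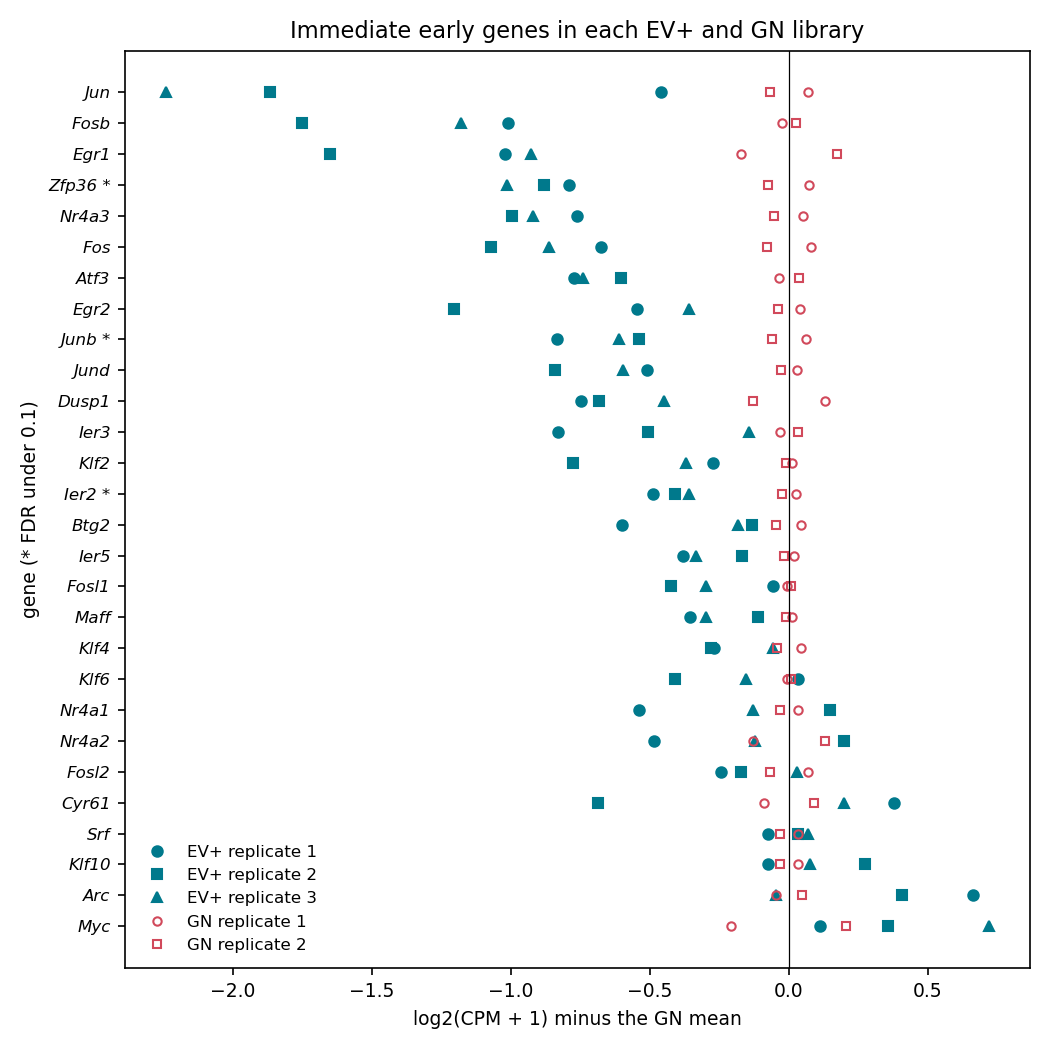
Log2(CPM + 1) of 28 immediate early genes (vertical axis, 1 gene per row) in each EV+ library (filled teal symbols) and GN library (open red symbols), as the difference from the mean of the GN libraries (horizontal axis). In the upper rows all EV+ symbols lie left of the GN symbols. For *Jun*, EV+ replicate 1 (circle) stands apart from replicates 2 and 3, and for *Junb*, *Dusp1* and *Ier3* replicate 1 is the lowest.

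Among receptors, *Csf2rb* rose, the common beta chain for GM-CSF, interleukin-3 and interleukin-5. It measured 135.8 and 141 CPM in GN and 227, 257 and 237 CPM in EV+ macrophages. The lowest EV+ library lay well above the higher GN library. The log2 difference was 0.79 (SE 0.115, adjusted p = 0.0156 by limma), a ratio of 1.73. EV- libraries gave 221, 249 and 237 CPM, which overlapped the EV+ values, and control libraries gave 142 and 103 CPM, near those of GN. *Csf2rb* rose against control as well (0.98, adjusted p = 2.52e-04), as did 1.82% of all genes. Its partner chain *Csf2ra*, named after its values were seen, was at 382 and 363 CPM in GN and 376, 309.6 and 362 CPM in EV+ libraries, which overlapped (-0.10, adjusted p = 0.909).

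*Hivep2* encodes a zinc finger protein that binds enhancers such as the kappa B motif. It was at 13.7 CPM in both GN libraries and at 27.0, 29.1 and 24.7 CPM in the EV+ libraries. The EV+ values sat beside those of control, 24.1 and 27.1 CPM, and of EV-, 21.9, 27.2 and 21.8 CPM. GN was the group that stood apart. *Hivep2* rose by 0.92 on the log2 scale against GN (SE 0.139, adjusted p = 0.0176 by limma) and differed from control by 0.07 (adjusted p = 0.882), having been lower in GN than in control (-0.86, adjusted p = 0.0136). *Lipg*, endothelial lipase, an enzyme that hydrolyzes phospholipids of lipoproteins, had the same order. It measured 15.6 and 18 CPM in GN, 32.7, 28.8 and 27.6 CPM in EV+ and 32.1 and 29.8 CPM in control libraries. Its log2 difference was 0.79 against GN (SE 0.144, adjusted p = 0.0893 by limma) and -0.06 against control (adjusted p = 0.9). EV- minus GN was 0.74 for *Hivep2* (adjusted p = 0.0487) and 0.57 for *Lipg* (adjusted p = 0.208, both by limma).

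*Tmem50b*, which encodes a small membrane protein of the endoplasmic reticulum and Golgi, was the third gene with EV+ values at the control level. It stood at 85.0 and 77.1 CPM in GN, at 127, 107.7 and 118 CPM in EV+ and at 119.7 and 119.4 CPM in control libraries. The rise against GN was 0.53 on the log2 scale (SE 0.0889, adjusted p = 0.0465 by limma), and GN was lower than control by 0.56 (log2 difference -0.56, adjusted p = 0.0126). EV- macrophages rose against GN as well (0.48, adjusted p = 0.0471 by limma). An adjusted p that misses the threshold does not show that EV+ and control levels were equal.

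Of the secreted products, *Pcsk1* encodes prohormone convertase 1/3, a protease of the regulated secretory pathway. It was at 162.5 and 188.5 CPM in GN and at 250.2, 261 and 234 CPM in EV+ libraries. Its levels ran upward from control (118.6 and 128 CPM) through GN and EV- (207, 216 and 221 CPM) to EV+, and no EV+ library overlapped any other group. The log2 difference against GN was 0.50 (SE 0.0854, adjusted p = 0.0489 by limma) and against control 1.003 (adjusted p = 2.54e-05), but against EV- it did not pass (0.21, adjusted p = 0.994). *Lrg1*, a secreted leucine-rich glycoprotein that modulates TGF-beta signaling, was at 289 and 295 CPM in GN and at 375, 397 and 415 CPM in EV+ libraries. It rose by 0.43 (SE 0.0818, adjusted p = 0.0947 by limma), with control libraries at 329 and 383 CPM. In EV- macrophages *Lrg1* rose against GN by 0.41 (adjusted p = 0.0673 by limma). None of *Pcsk1*, *Lipg* and *Lrg1* passed in any of the 5 fits that left out a library, and *Tmem50b* passed in 1.

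The 10 genes of MHC class II presentation had a median of -0.61, the lowest of the lists apart from one of skeletal muscle genes, and none passed the test without a replicate block. For 6 of the 10 (60.0%) every EV+ value lay below both GN values, against 11.8% of all genes. *RT1-Da*, the alpha chain of the rat DR-like molecule, was at 318 and 282 CPM in GN and at 156, 133 and 199.9 CPM in EV+ libraries. The groups did not overlap, and the log2 difference was -0.89 (SE 0.192, adjusted p = 0.187 by limma). *Cd74*, the invariant chain that guides class II molecules to the endosome, measured 1202 and 1115 CPM in GN and 827, 629 and 906 CPM in EV+ libraries (-0.57, adjusted p = 0.289). Among the DQ-like chains, *RT1-Bb* was at 152 and 155 CPM in GN and at 70.6, 66.1 and 113.1 CPM in EV+ libraries (-0.92, adjusted p = 0.409). EV+ replicate 3 was the highest of the 3 for each of these genes. With the replicate block, *RT1-Da*, *Cd74* and *RT1-Bb* were under the threshold (adjusted p = 0.0332, 0.0394 and 0.0602), as were *RT1-Ba* (0.0394) and *RT1-Db1* (0.0397). The block did not pair GN with EV+ libraries.

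By log2 difference from GN, *Cd74*, *RT1-Ba*, *RT1-Bb*, *RT1-Da*, *RT1-Db1*, *Ciita* and *Ifi30* lay between GN and EV- in EV+ macrophages. *RT1-DMa* and *RT1-DMb* differed little from GN and were lower in EV+ (-0.18 and -0.19) than in EV- libraries (-0.09 and -0.15). In EV- libraries *RT1-Da* was at 110.1, 64.6 and 97.9 CPM, below all EV+ values, and in control libraries at 98.9 and 113.9 CPM. Of the 10 genes, 5 were called lower in EV- than in GN libraries (0.322% of all genes were), and 5 were called higher in GN than in control libraries (0.933%). The list's median was -1.31 for EV- minus GN and 0.59 for EV+ minus EV-. *Ctss*, the cathepsin that trims the invariant chain, went the other way, at 577 and 529 CPM in GN and 678, 648 and 652 CPM in EV+ libraries (0.26, adjusted p = 0.411). The transactivator *Ciita*, named after its values were seen, was at 8.91 and 9.94 CPM in GN and at 3.28, 6.06 and 8.70 CPM in EV+ libraries (-0.65, adjusted p = 0.834). Class II genes are also expressed by B cells and dendritic cells. The summed level of 10 B cell and plasma cell markers was 765 to 879 CPM in GN and 850 to 916 CPM in EV+ libraries. That of 11 dendritic cell markers was 549 to 578 CPM in GN and 539 to 557 CPM in EV+ libraries. Abundant members such as *Cd37* and *Cd1d1* weigh most in these sums. Of the 11 dendritic cell markers, 9 were lower in EV+ libraries, and 3 (27.3%) lay below GN without overlap, against 11.8% of all genes. Their median was -0.20, or -0.055 among members with a mean of at least 5 CPM. Of the 10 B cell and plasma cell markers, 8 were higher and 2 lower. In these bulk libraries, fewer cells with high class II expression and less class II RNA per cell cannot be told apart.

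**Figure D4:**
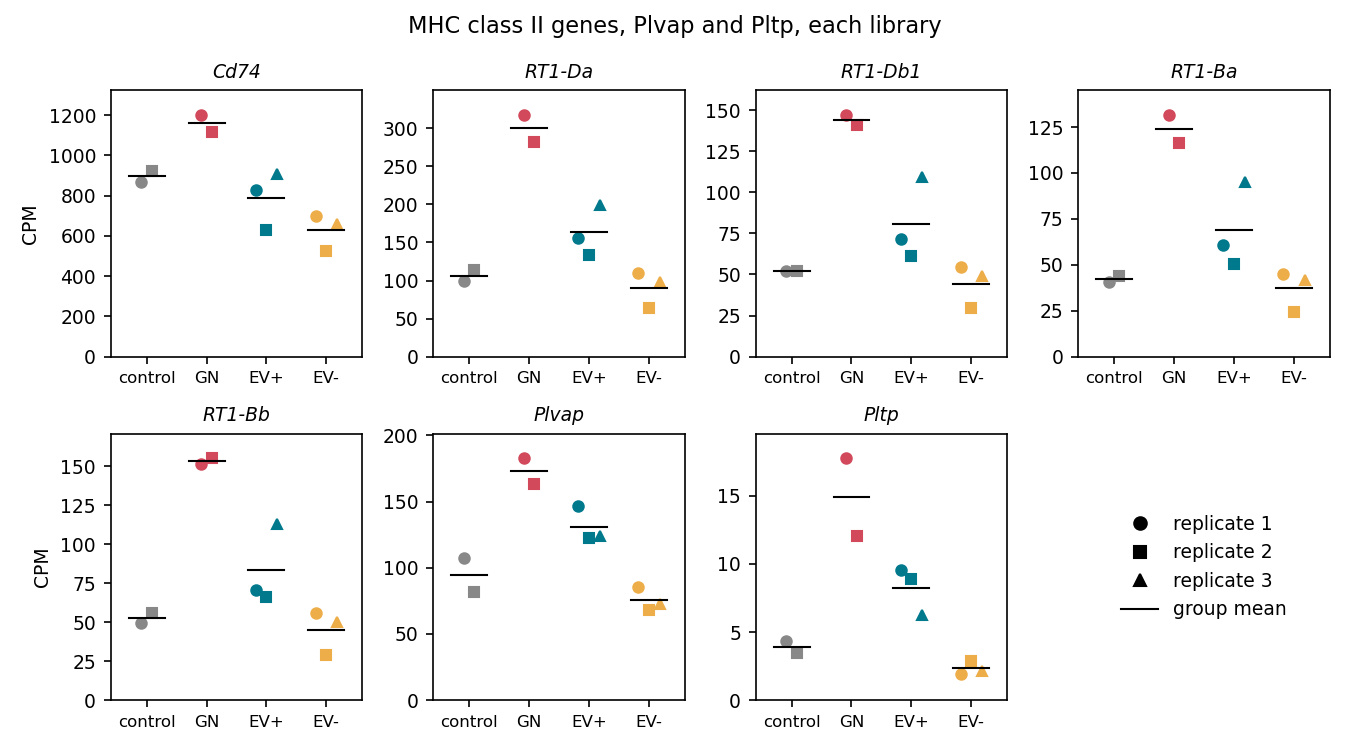
CPM (vertical axis, starting at 0) of *Cd74*, the class II chains *RT1-Da*, *RT1-Db1*, *RT1-Ba* and *RT1-Bb*, and *Plvap* and *Pltp* in each library of the 4 groups, with bars at the group means and the symbol shape giving the replicate number. GN values are the highest in every panel, EV+ values lie below them, and EV- values are the lowest or near those of control.

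The direct test between EV+ and EV- macrophages called 2 genes (0.0222% of 9003), both higher in EV+, and 5 (*Pltp*, *Plvap*, *C2*, *Lpl* and *RT1-Da*, all higher in EV+) with the replicate number as a block. *Pltp*, phospholipid transfer protein, was at 9.53, 8.88 and 6.25 CPM in EV+ and at 1.94, 2.91 and 2.14 CPM in EV- libraries, while GN libraries had 17.8 and 12.01 CPM. EV+ macrophages thus kept values between GN and EV-, with no overlap on either side. The log2 difference was 1.46 between EV+ and EV- (adjusted p = 0.0394 by limma, and 0.0463 with the block) and -0.78 between EV+ and GN (adjusted p = 0.467). *Plvap*, a diaphragm protein of fenestrae and caveolae, measured 146.5, 122 and 124 CPM in EV+, 85.5, 68.1 and 72.3 CPM in EV- and 183 and 163 CPM in GN libraries. Its log2 difference was 0.79 between EV+ and EV- (adjusted p = 0.0394, and 0.00154 with the block) and -0.40 between EV+ and GN (adjusted p = 0.515). Leaving out any 1 EV+ or EV- library gave 0 to 5 genes, with 0 without EV+ replicate 1.

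The NF-kB and TNF target list of 26 genes had 16 lower and 10 higher members and no call, with a median of -0.12. For 12 (46.2%) all EV+ values lay below both GN values, against 11.8% of all genes. The chemokine gene *Ccl3* was at 325 CPM in GN replicate 1 and 324.5 CPM in GN replicate 2, and at 214, 169 and 205 CPM in EV+ libraries (-0.73, adjusted p = 0.187 by limma). The monocyte attractant *Ccl2* measured 37.9 and 40.9 CPM in GN and 15.9, 26.8 and 26.6 CPM in EV+ libraries (-0.78, adjusted p = 0.409). *Cd83*, which stabilizes class II molecules at the surface, stood at 116.1 and 112.7 CPM in GN and at 67.8, 80.3 and 78.9 CPM in EV+ libraries (-0.59, adjusted p = 0.195). *Bcl3*, an atypical I kappa B protein, ran opposite, with 79.3 and 71.4 CPM in GN and 98.0, 99.8 and 104 CPM in EV+ libraries (0.41, adjusted p = 0.212). In EV- libraries *Cd83* was lower still, at 49.5, 51.1 and 51.9 CPM (-1.15 against GN, adjusted p = 8.32e-04 by limma). EV- minus GN was -0.99 for *Ccl2* (adjusted p = 0.0833), -0.61 for *Ccl3* (0.232) and 0.41 for *Bcl3* (0.134, all by limma). None of these 4, which were picked as the members with the smallest p, overlapped between EV+ and GN. With the replicate block *Ccl3* and *Ccl2* were under the threshold (adjusted p = 0.0234 and 0.0755). The list's median was -0.06 among members with a mean of at least 5 CPM and -0.183 without GN replicate 1.

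Interferon response genes did not share this lean. Of 32 genes, 27 were higher and 5 lower in EV+ libraries, with a median of 0.12 and no call. For 4 (12.5%) the EV+ values lay above GN without overlap, close to the 11.2% of all genes. The median depended on single libraries, falling to 0.025 without GN replicate 2 and 0.054 without EV+ replicate 1, and reaching 0.206 without EV+ replicate 2 and 0.187 without GN replicate 1. *Oasl2*, an antiviral oligoadenylate synthetase-like gene, was at 240.5 and 214 CPM in GN and at 279, 248 and 250.2 CPM in EV+ libraries (0.19, adjusted p = 0.685 by limma). *Cxcl10*, a chemokine for activated T cells, lay on the other side, at 23.3 and 23.7 CPM in GN and at 8.24, 14.0 and 17.2 CPM in EV+ libraries (-0.85, adjusted p = 0.496).

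Of 22 CREB and cAMP response genes, 9 were higher and 13 lower. The 2 called members, *Pcsk1* and *Rgs2*, went in opposite directions, and the median was -0.14, or -0.019 without EV+ replicate 1 and -0.22 without EV+ replicate 2. The 13 genes of the prostaglandin pathway had a median of 0.11 (0.068 without EV+ replicate 1) with 10 higher and no call. *Ptgir*, the prostacyclin receptor, was at 51.3 and 55.9 CPM in GN and at 69.8, 73.7 and 67.6 CPM in EV+ libraries, without overlap (0.39, adjusted p = 0.437 by limma). *Ptger4*, a receptor for prostaglandin E2 named after its values were seen, overlapped between the groups, at 100.5 and 98.9 CPM in GN and 78.0, 101.6 and 105.5 CPM in EV+ libraries (-0.08, adjusted p = 0.942).

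Polarization genes showed no call in either direction. The 16 M2 and regulatory genes had a median of -0.18, with 8 (50%) below GN without overlap against 11.8% of all genes, but the median was -0.1 without EV+ replicate 1 and -0.00 among members with a mean of at least 5 CPM. *Il10*, which encodes the main anti-inflammatory cytokine of macrophages, was at 12.7 and 14.7 CPM in GN and at 11.99, 9.13 and 6.11 CPM in EV+ libraries (-0.58, adjusted p = 0.673 by limma). Control libraries had 25.2 and 17.0 CPM of *Il10*, and EV+ was called lower than control (-1.15, adjusted p = 0.023). EV- libraries had 5.20, 4.89 and 6.54 CPM of *Il10* and were called lower than GN (-1.17, adjusted p = 0.081 by limma). *Il4r*, a receptor chain for interleukin-4 that was named after its values were seen, measured 148 and 145.8 CPM in GN and 173, 164 and 160.6 CPM in EV+ libraries (0.17, adjusted p = 0.719). The 16 M1 genes had a median of -0.04 and 3 (18.8%) below GN without overlap, against 11.8% of all genes. Their median ranged from -0.081 without EV+ replicate 1 to -0.022 without EV+ replicate 2. *Tnf* was low, at 1.07 and 0.979 CPM in GN and 0.274, 0.589 and 0.758 CPM in EV+ libraries.

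Lysosomal genes tended upward with small differences. Of 27, 18 were higher, 8 (29.6%) lay above GN without overlap against 11.2% of all genes, and the median was 0.06, ranging from 0.036 without EV+ replicate 1 to 0.1 without EV+ replicate 2. Besides *Ctss*, they included *Gusb*, a lysosomal glucuronidase, at 105.4 and 105.8 CPM in GN and 120.5, 133 and 128 CPM in EV+ libraries (0.27, adjusted p = 0.496 by limma). The proton pump subunit *Atp6v1b2* was at 327 and 323 CPM in GN and 383, 368.5 and 413 CPM in EV+ libraries (0.25, adjusted p = 0.477). In 36 genes of secretion and exocytosis, *Pcsk1* was the sole call and the median was 0.05 (-0.007 without GN replicate 2, 0.007 without EV+ replicate 3 and 0.026 without EV+ replicate 2). Without overlap, 8 (22.2%) of the 36 lay above GN and 3 (8.33%) below, against 11.2% and 11.8% of all genes. The 16 genes of vesicle uptake and scavenger receptors had as many members higher as lower (8 each), with 3 (18.8%) beyond GN on either side, against 11.2% of all genes above and 11.8% below, and a median of -0.00. *Lrp1*, an endocytic receptor, was at 352 and 339.6 CPM in GN and 419, 474 and 378 CPM in EV+ libraries (0.29, adjusted p = 0.643). Larger differences in the list went down, without overlap, in *Siglec1* (-1.17, adjusted p = 0.643) and *Axl* (-1.10, adjusted p = 0.656, all by limma). These 2 genes were low, reaching 7.495 and 6.365 CPM over the 10 libraries.

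Of the metabolic lists, 28 respiratory chain subunits had a median of -0.08 with 23 lower, 20 glycolytic genes 0.05 with 13 higher, and 26 cholesterol synthesis genes 0.12 with 21 higher, without any call. *Slc16a3*, a lactate exporter, measured 650 and 570.5 CPM in GN and 694.5, 744 and 732 CPM in EV+ libraries (0.25, adjusted p = 0.536 by limma). These medians rested on single libraries. That of the respiratory chain was 0.017 without EV+ replicate 2, that of glycolysis 0.01 without EV+ replicate 1 and 0.084 without EV+ replicate 2, and that of cholesterol synthesis -0.03 without GN replicate 2 and 0.254 without GN replicate 1. *Scap*, which escorts the sterol-sensing transcription factor, was at 33.7 CPM in GN replicate 1 and 15.9 CPM in GN replicate 2, and at 36.1, 42.4 and 34.4 CPM in EV+ libraries (0.67, adjusted p = 0.536).

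In the Notch list of 19 genes, *Hes1* was called lower while 14 members were higher, 7 (36.8%) of them without overlap against 11.2% of all genes. *Notch1*, a receptor upstream of *Hes1*, was at 49.5 and 39.6 CPM in GN and at 54.9, 91.1 and 55.5 CPM in EV+ libraries (0.55, adjusted p = 0.643 by limma). *Notch2* measured 296 and 332 CPM in GN and 367, 505 and 369 CPM in EV+ libraries (0.38, adjusted p = 0.592). EV+ replicate 2 was the highest library for both receptors. *Mib2*, an E3 ligase that acts on Notch ligands, was among the largest rises, at 6.51 and 6.48 CPM in GN and 10.4, 14.6 and 11.8 CPM in EV+ libraries (0.81, adjusted p = 0.296). The direction of *Hes1* thus differed from that of most other members of the list.

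Other large differences without a call came from several kinds of genes. *Apoe*, the lipid carrier of macrophages, was at 11.95 and 11.4 CPM in GN and at 2.11, 5.98 and 4.82 CPM in EV+ libraries (-1.34, adjusted p = 0.258 by limma). *Sema4a*, a semaphorin that costimulates T cells, stood at 16.2 and 20.2 CPM in GN, at 6.45, 6.74 and 12.6 CPM in EV+ and at 3.20 and 2.85 CPM in control libraries (-1.05 against GN, adjusted p = 0.469). Neither had an EV+ value within the GN range, which the rule that named them required. The complement gene *C4b* was at 8.48 and 5.39 CPM in GN and 13.1, 15.7 and 12.3 CPM in EV+ libraries (0.91, adjusted p = 0.424). Of 18 complement genes, 8 were higher and 10 lower, with a median of -0.03 and no call. Without overlap, 2 (11.1%) lay above GN and 6 (33.3%) below, against 11.2% and 11.8% of all genes. *Tsc22d3*, a glucocorticoid-induced leucine zipper gene, was at 286 and 227 CPM in GN and at 482, 294 and 505 CPM in EV+ libraries (0.71, adjusted p = 0.604), and *Per1*, a clock gene that glucocorticoids also induce, at 15.5 and 6.93 CPM in GN and 17.4, 16.3 and 20.7 CPM in EV+ libraries (0.73, adjusted p = 0.658). GN replicate 2 was the lowest of the 10 libraries for both. With the replicate block *Sema4a* and *Tsc22d3* were under the threshold (adjusted p = 0.021 and 0.0495).

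Markers of other cell types were checked beside these results. No list of NK and T cell, B cell, neutrophil, dendritic, erythroid or stromal markers held a gene that passed between EV+ and GN. The summed level of 19 NK and T cell markers was 481 and 464 CPM in GN and 583, 439 and 548 CPM in EV+ libraries. Much of it came from *Cd8a*, at 254 to 330 CPM, a gene that rat macrophages can express. The 8 neutrophil markers summed to 611 and 690 CPM in GN and 701 to 719.9 CPM in EV+ libraries, which all lay above GN. Most of that sum was *Csf3r*, which reached 723 CPM over the 10 libraries. The 9 stromal and mesenchymal markers in the table, of the 26 listed, summed to 1537 and 1525 CPM in GN and 1583, 1421 and 1577 CPM in EV+ libraries, which overlapped. Reads were aligned to the rat genome, so RNA of the human ASCs was not measured here.

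Skeletal muscle transcripts separated the groups most in size. A list of 18 such genes, added after the values were seen, had 16 (88.9%) below GN without overlap, against 11.8% of all genes, and a median of -1.53, with no call. The median was -0.843 without GN replicate 1, -0.579 with a pseudocount of 5 and -2.88 with one of 0.1. *Acta1*, skeletal muscle actin, was at 44.1 and 8.74 CPM in GN and at 8.01, 0 and 0.491 CPM in EV+ libraries, against 10.98 and 12.04 CPM in control libraries. *Atp2a1*, the calcium pump of fast muscle, was at 27.1 and 6.93 CPM in GN and at 5.43, 0.0421 and 0.0892 CPM in EV+ libraries. GN replicate 1 was the highest of the 10 libraries for both genes, and EV+ replicate 1 lay just under GN replicate 2. *Atp2a1* was under the threshold with the replicate block (adjusted p = 0.0917). Their part in the comparison was not tested.

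**Figure D5:**
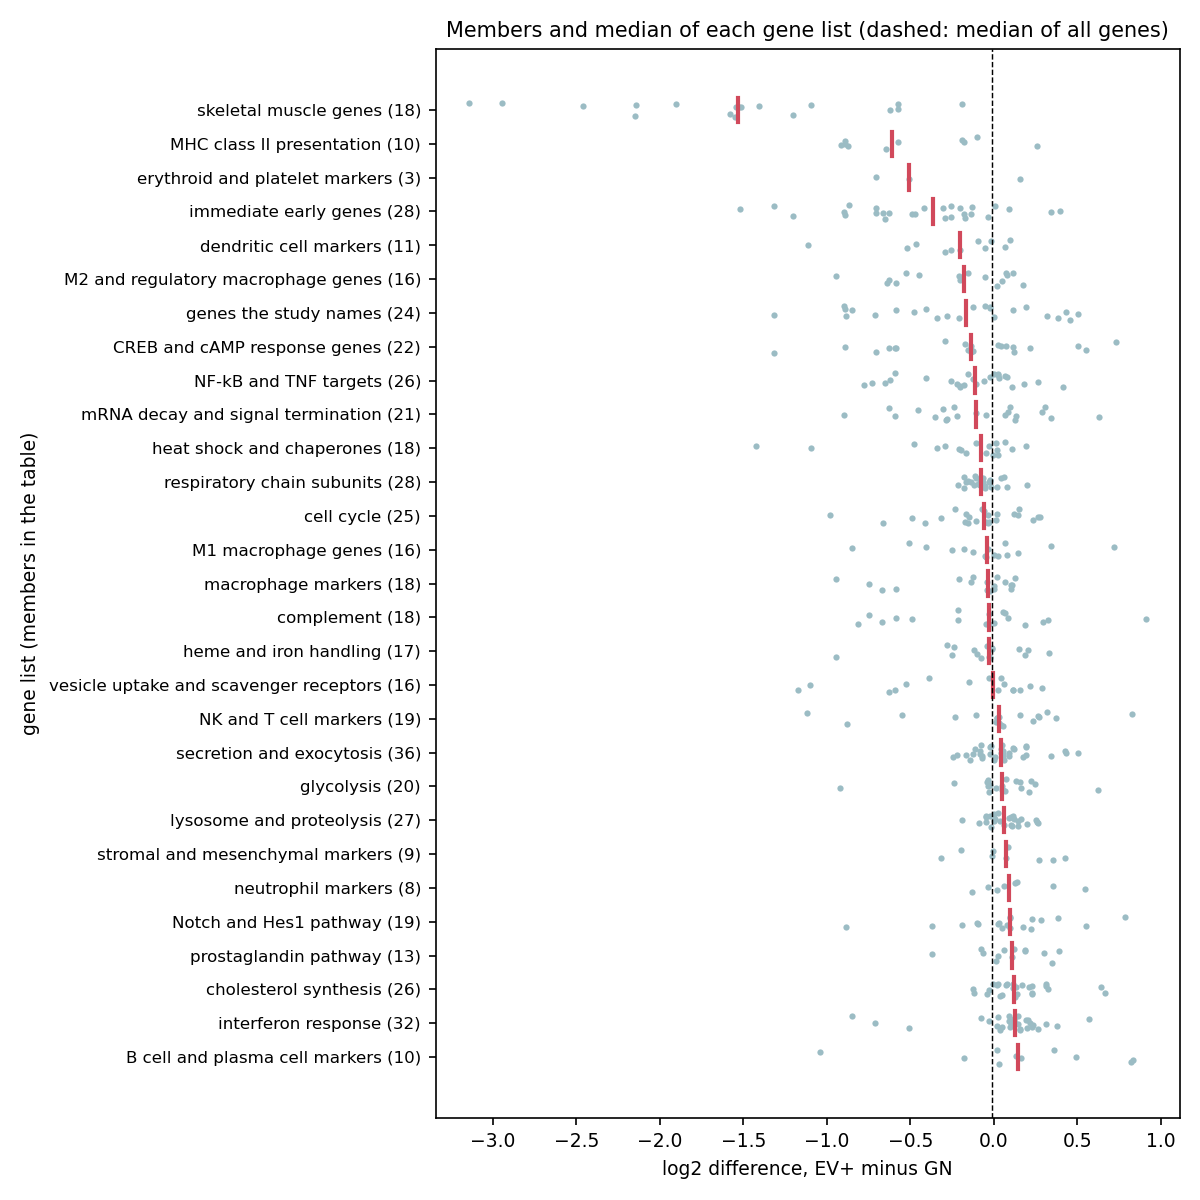
Log2 difference between EV+ and GN (horizontal axis) of each member (dots) and the median (red bar) of the gene lists, with the number of members in the table in parentheses and the median of all genes as a dashed line at -0.01. The skeletal muscle, MHC class II, erythroid and platelet (3 genes, 0.154 among those with a mean of at least 5 CPM) and immediate early lists lie left of the dashed line with medians of -1.53, -0.61, -0.51 and -0.36, while the medians of most other lists lie near it.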

How the data were processed

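Total RNA of splenic M2 macrophages from WKY /Ncrj rats was sequenced by the authors with a SMART-Seq and Nextera XT protocol in 10 libraries (control, n = 2; GN, n = 2; EV+, n = 3; EV-, n = 3), grouped here by their labels. Per the methods and the submitters' processing notes, reads were aligned to rn6 with STAR (2.5.3) and counted on RefSeq genes with HTSeq (0.6.0), whose strand setting is not given in the sources used here, and genes whose maximum stayed under 1 CPM were removed. The deposited table holds a normalized signal, TMM-scaled CPM made by the authors with edgeR. All values (100%, tolerance 0.01) gave whole reads when divided by what 1 read is worth, between 19270515 and 26617093 reads per library. No column was left out. Spreadsheet dates stood in place of 18 symbols, and those genes were not named. Within each group, no library was a copy of another (chi-square per degree of freedom 13.4 to 45.4).

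Differences were tested with limma (3.58.1) in R (4.3.3) on log2(CPM + 1), which understates changes of low genes, over the 4 groups (6 residual degrees of freedom, intensity trend, Benjamini-Hochberg over 9003 genes, FDR under 0.1). P-values measure the spread between these libraries. An exact permutation test of 3 against 2 libraries cannot go below 0.1 (two-sided) and was not used. On the recovered reads, edgeR (4.0.16), DESeq2 (1.42.0) and limma voom were run as alternatives, beside other pseudocounts, filters, scaling and left-out libraries. The fit was tested on simulated data. Deviations of same-numbered EV+ and EV- libraries correlated (r = 0.203, 0.295 and 0.122 across genes), and a fit with replicate as a block is given beside that comparison. For EV+ against GN the same fit is given as an alternative only.

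Genes named are those called, the 10 largest rises and falls whose groups did not overlap and whose mean reached 5 CPM, up to 4 per list by p, and the study's own, unless said otherwise. Members and lists were chosen with earlier results of these data known, and not every gene the rule yields is printed. Symbols were matched to RefSeq promoters on GRCr8 with pandas (2.3.3), and figures were drawn with matplotlib.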

Additional observations from a re-analysis of the deposited data

Results flagged for a closer look

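*Pltp* and *Plvap* differed from GN by different amounts in EV+ and in EV- macrophages, as the direct test between EV+ and EV- libraries showed. For *Pltp* the EV+ minus EV- difference was 1.46 on the log2 scale (adjusted p = 0.0394 by limma), higher in EV+ in 3 of 3 same-numbered pairs, and it ranged from 1.36 to 1.63 when any 1 EV+ or EV- library was left out, where the highest adjusted p was 0.266. For *Plvap* it was 0.79 (adjusted p = 0.0394), also higher in 3 of 3 pairs, and ranged from 0.71 to 0.89, where the highest adjusted p was 0.204. Control libraries had 4.31 and 3.46 CPM of *Pltp* and 107.7 and 82.0 CPM of *Plvap*, and both exceeded control in GN macrophages (1.68, adjusted p = 0.00579, and 0.87, adjusted p = 0.00829).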

How the results depend on the processing

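The count of 11 genes between EV+ and GN was 41 with DESeq2, 43 with edgeR's likelihood-ratio test, 21 with limma voom, 30 with the replicate block, 32 without EV+ replicate 1 and EV- replicate 1 (chosen after the data were seen) and 0 without the intensity trend, and it ranged from 0 to 7 when 1 library was left out. It stayed between 8 and 13 with edgeR's quasi-likelihood test, the 5 libraries alone (9, of which 6 were among the 11), other pseudocounts, stricter filters, RLE size factors (which moved the median of all genes by 0.000428) or an FDR under 0.05. DESeq2, the likelihood-ratio test, voom and the block each called all of the 11. Between EV+ and EV- the count of 2 was 34 with DESeq2, 5 with the replicate block and 0 to 5 when 1 library was left out (chosen after the data were seen). Between EV- and GN the count of 34 was 113 with DESeq2 and 53 with the replicate block. The cause was not tested. The replicate numbers did not pair GN with EV+ libraries, whose deviations correlated at r = 0.051 and 0.02. The log2 difference of *Ptger4* ranged from -0.162 to 0.054 when 1 library was left out, and was 0.054 without EV+ replicate 1, alone or together with EV- replicate 1. Depth limits genes near the detection floor.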
